A study of Homo sapiens with 9 samples.

Results

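The genes described here are 10 components of transforming growth factor beta (TGF-beta) signalling: the ligands TGFB1, TGFB2 and INHBA, the receptors TGFBR1, TGFBR2 and TGFBR3, and the signal transducers SMAD2, SMAD3, SMAD4 and SMAD7. They were chosen by gene name from the 57773 genes of the deposited table, and each of the 10 names matched 1 gene. The cells were OVCAR-8, an ovarian cancer line of human origin, harvested for messenger RNA sequencing 48 h after a small interfering RNA (siRNA) was transfected, and the study asked how loss of CDK12, a cyclin K dependent kinase of RNA polymerase II, changes the transcriptome. A luciferase siRNA, which has no human target, was the control, and the siRNAs CDK12-2 and CDK12-6 each targeted CDK12. Each of the 3 groups had 3 libraries, under the numbers AK39, AK41 and AK49. The labels call the libraries technical replicates and do not say what these numbers mark, so a p-value here reflects how libraries differ from each other, possibly for technical reasons alone. All groups share 1 cell line, 1 time point and the transfection itself, and no untransfected cells were analysed here.

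TGF-beta ligands are made as latent precursors and, once released, bring together a type II receptor (TGFBR2) and a type I receptor (TGFBR1), both of them serine/threonine kinases. The type I receptor phosphorylates SMAD2 and SMAD3, which join SMAD4, enter the nucleus and act on target genes. SMAD7 is itself a target gene and blocks the active type I receptor, which closes a negative feedback loop. TGFBR3 (betaglycan) is a coreceptor without kinase activity that presents ligand, TGF-beta 2 above all. INHBA encodes the subunit of activin A, a related ligand with its own receptors that also acts through SMAD2 and SMAD3. In epithelial cancers the pathway is known both for growth arrest and for the mesenchymal transition.

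Promoters of the ligands that rose and of the coreceptor that fell are shown because these 3 genes are the members with a single listed start that changed. The sequences are the 250 bases upstream of the start in RefSeq (build GRCh38.p14), on the strand of the gene, and all 10 genes matched the table. Capitals mark GTCT or its reverse complement AGAC, the core of the SMAD binding element, and GGGCGG or CCGCCC, the GC box bound by the SP family. The windows are chr1:218345086-218345335 (plus strand) for TGFB2, chr7:41703091-41703340 (minus strand) for INHBA and chr1:91886152-91886401 (minus strand) for TGFBR3.
TGFB2: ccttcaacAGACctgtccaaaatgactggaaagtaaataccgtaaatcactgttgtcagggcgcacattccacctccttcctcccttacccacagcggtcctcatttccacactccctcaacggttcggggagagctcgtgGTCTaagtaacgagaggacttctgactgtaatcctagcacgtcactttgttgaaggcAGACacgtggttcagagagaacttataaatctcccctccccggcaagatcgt
INHBA: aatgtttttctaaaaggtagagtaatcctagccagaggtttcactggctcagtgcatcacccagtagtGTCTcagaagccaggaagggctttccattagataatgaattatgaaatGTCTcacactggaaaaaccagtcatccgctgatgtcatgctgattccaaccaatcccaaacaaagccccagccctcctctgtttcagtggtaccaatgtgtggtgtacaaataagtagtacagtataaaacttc
TGFBR3: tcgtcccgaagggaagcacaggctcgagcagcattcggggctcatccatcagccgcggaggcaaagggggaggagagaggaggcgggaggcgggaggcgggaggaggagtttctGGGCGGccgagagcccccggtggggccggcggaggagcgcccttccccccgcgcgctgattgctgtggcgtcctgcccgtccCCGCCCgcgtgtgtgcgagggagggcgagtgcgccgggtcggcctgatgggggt

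The TGFB2 window holds 3 copies of the 4-base SMAD core and no GC box, and 50.4% of its bases are G or C. The INHBA window holds 2 copies of the core and no GC box, at 42.8% G or C. The TGFBR3 window holds no copy of the core and 2 GC boxes, at 73.6% G or C. Among the other members with 1 listed start, TGFB1 had 6 GC boxes and SMAD4 had 2, and neither had the core. Members with several listed starts varied. SMAD7, which rose, had 1 to 5 copies of the core and no GC box. TGFBR1, TGFBR2 and SMAD3, which also rose, had 0 to 2, 1 and 0 to 5 copies of the core and up to 6, 2 and 4 GC boxes. SMAD2, which did not pass, had 1 copy of the core and 3 GC boxes at each start. The 4-base core occurs in 77.5% of the 35116 promoter windows of the table and the GC box in 42.6%, on either strand, and the median G or C content of the windows is 58%. The 8-base palindrome GTCTAGAC, a pair of abutting cores that the core count also reads, occurs in 0.182% of windows and in none of the members' windows. These matches are letters in a window and were not tested as binding sites.

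Of the members, 4 also carry the 7 letters GTGGGCA in the longest annotated 3′ UTR (GENCODE 29, build GRCh38, the strand of the gene only). The sites in the 3 of them that changed are shown because this heptamer was seen in earlier work on these data to be frequent in the 3′ UTRs of genes that fell. Capitals mark the heptamer. The sites lie at chr1:218443811-218443839 (plus strand) in TGFB2, chr7:41685851-41685879 (minus strand) in INHBA and chr1:91680790-91680818 (minus strand) in TGFBR3.
TGFB2: ctagtatgcaaGTGGGCAgcaattatttt
INHBA: aacttgtagatGTGGGCAgaaggtttggg
TGFBR3: ttgtgttcttaGTGGGCAtgattgtgagt

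The library sizes recovered from the deposited values were 130.7 to 173.4, in units of 1000000 reads, of which 68.2% to 82.7% lay in listed genes. CDK12, the target of the knockdown, stood at 8.33, 7.09 and 8.40 RPKM (reads per kilobase of gene and per 1000000 reads) in the luciferase libraries AK39, AK41 and AK49. It stood at 2.06, 2.57 and 2.70 RPKM with CDK12-2 and at 2.09, 2.37 and 2.75 with CDK12-6, a log2 fold change of -1.39 (SE 0.095). The authors' deposited table gives -1.725. On the second principal component (32.8% of the variance), luciferase AK41, CDK12-2 AK39 and CDK12-6 AK39 lay at the negative end, at -24.6, -15.5 and -18.3. CDK12-2 AK49 and CDK12-6 AK49 lay at the positive end, at 23.0 and 22.5, and the remaining libraries between -2.97 and 7.80. Luciferase AK41, CDK12-2 AK39 and CDK12-6 AK39 also had the smallest share of reads in listed genes within their groups, at 75.8%, 68.2% and 70.5%. Epithelial keratin genes were high in the controls (KRT8 225 and KRT18 166 RPKM) and the Müllerian factor PAX8 was at 7.73 RPKM, while KRT19 and MUC16 stayed under 0.1 RPKM. The epithelial marker EPCAM rose from 2.59 to 3.68 RPKM with CDK12 siRNA (log2 fold change 0.38, limma, adjusted p = 0.00294). WT1 stood at 0.868 and 0.886 RPKM. Of the markers of other cell types, DCN was at 0 in all 9 libraries and PTPRC and CDH5 stayed under 0.1 RPKM. CD68 was 15.4 ± 1.39 RPKM (SD, n = 3) in the controls and 4.54 ± 0.670 (SD, n = 6) with CDK12 siRNA, and LUM was 0.177 ± 0.037 and 0.339 ± 0.071. The part of these markers in the results on the TGF-beta genes was not tested. In a bulk library, fewer cells expressing a gene and less RNA per cell cannot be told apart.

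Of the 10 genes, 6 were higher and 1 was lower with CDK12 siRNA, taking the mean of both siRNAs against luciferase at an adjusted p under 0.05. TGFB2, SMAD3, SMAD7, INHBA, TGFBR1 and TGFBR2 rose, TGFBR3 fell, and TGFB1, SMAD2 and SMAD4 did not pass the test. Tests were made with limma on log2(RPKM + 1), a scale that understates changes at low RPKM, over 15208 genes, with Benjamini-Hochberg adjustment. By the same rule 33% of all tested genes were called, 13.3% higher and 19.7% lower. The ranges of the 6 CDK12 siRNA and 3 luciferase libraries did not overlap for these 7 members and overlapped for the other 3. Over all tested genes the ranges did not overlap for 34.2%, with 14.3% higher and 19.9% lower. TGFB2 reached the filter of 1 RPKM in 3 libraries through CDK12 siRNA libraries alone, so it had to differ to be tested, and the count is a description of the members only. The median log2 fold change was 0.31 over the 10 genes and -0.04 over all tested genes. Without the 3 AK41 libraries only TGFB2, SMAD7 and TGFBR3 passed, and without luciferase AK41, CDK12-2 AK39 and CDK12-6 AK39 the count was 8, with SMAD4 added.

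**Figure D1:**
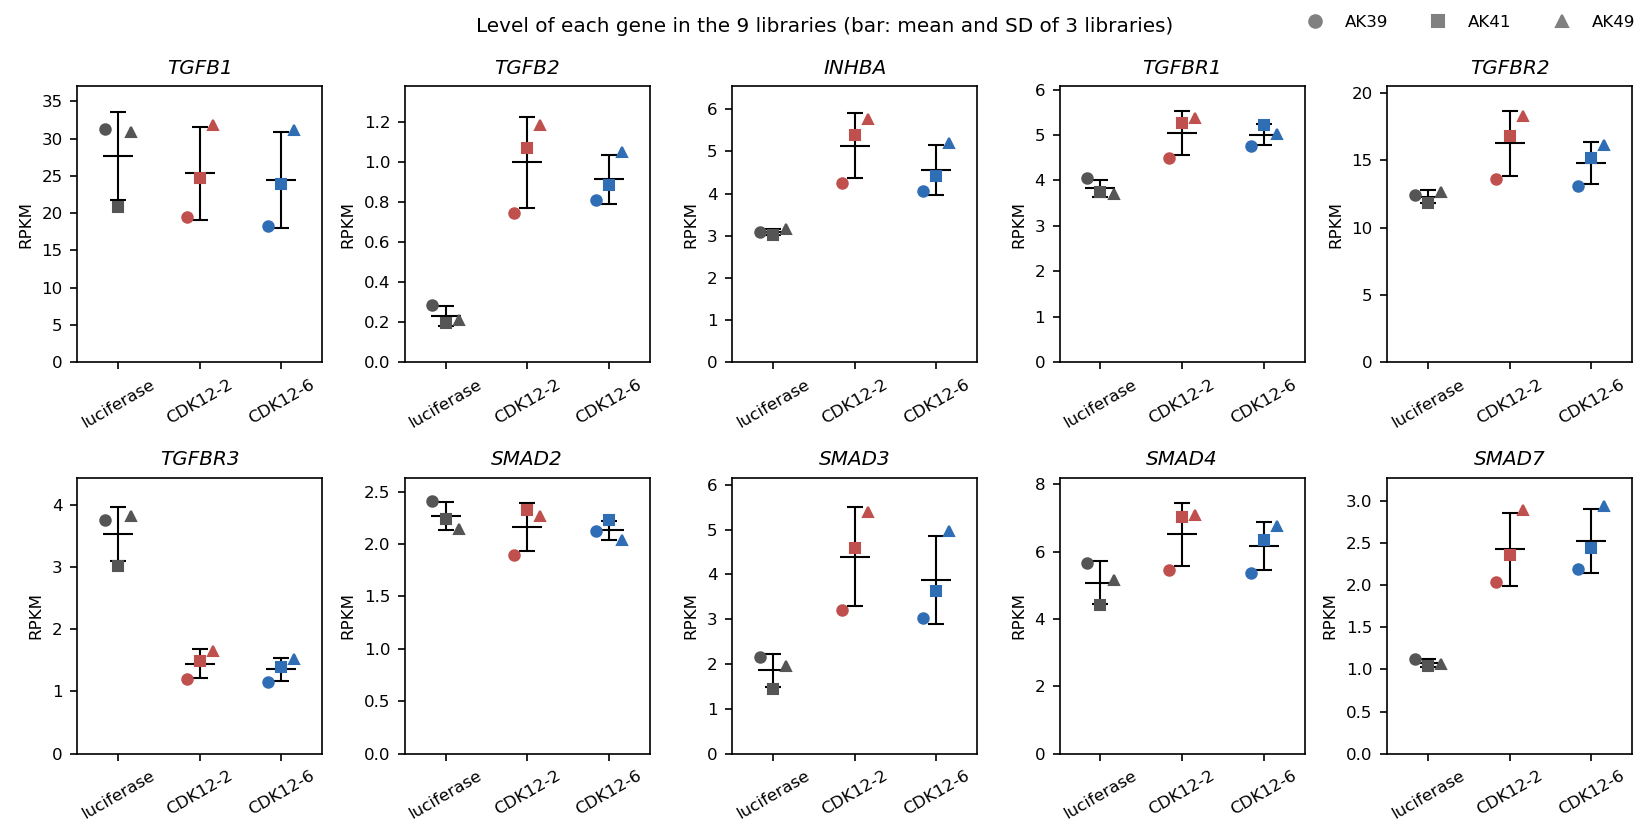
RPKM of each of the 10 genes in the 9 libraries, by siRNA group. Points are libraries, with the marker shape giving the AK number, and bars give the mean and SD of 3 libraries. The CDK12 siRNA libraries lie above the controls for TGFB2, INHBA, TGFBR1, TGFBR2, SMAD3 and SMAD7 and below them for TGFBR3, and the groups overlap for TGFB1, SMAD2 and SMAD4.

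Among the ligands, TGFB2 and INHBA rose and TGFB1 did not pass the test. TGFB2 (chr1:218519577-218617961, hg19), the isoform that depends most on the coreceptor, was nearly silent in the controls at 0.287, 0.196 and 0.211 RPKM. With CDK12-2 it stood at 0.744, 1.07 and 1.18 RPKM and with CDK12-6 at 0.809, 0.883 and 1.05. Every CDK12 siRNA library was above every control, and the mean went from 0.231 ± 0.049 (SD, n = 3) to 0.955 ± 0.169 (SD, n = 6), or 4.13-fold. These values rest on 145 to 853 reads per library. TGFB2 reached the filter of 1 RPKM through CDK12 siRNA libraries alone, so it had to differ to be tested. With no filter on low values its limma adjusted p was 0.0022. The log2 fold change was 0.66 ± 0.08 (SE; limma, adjusted p = 0.000276), a scale that understates a gene near 1 RPKM. With a pseudocount of 0.1 it was 1.67, and in the authors' deposited table it is 2.04.

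TGFB1 (chr19:41807492-41859816, hg19), the most abundant of the 10 genes, stood at 31.3, 20.8 and 30.8 RPKM in the controls. It stood at 19.4, 24.7 and 31.9 RPKM with CDK12-2 and at 18.3, 23.9 and 31.2 with CDK12-6. The groups cover the same range. The low values are in the 3 libraries at the negative end of the second principal component, AK41 of luciferase and AK39 of both CDK12 siRNAs. Its log2 fold change was -0.15 ± 0.20 (SE), with a 95% interval of -0.60 to 0.30 (limma, adjusted p = 0.603). The direction was not stable, since without the 3 AK39 libraries it was 0.12. TGFB1 overlaps HNRNPUL1 and 3 further genes, whose reads the unstranded library cannot separate from it.

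INHBA (chr7:41724712-41742706, hg19) had the tightest controls of the ligands, at 3.09, 3.02 and 3.16 RPKM. It stood at 4.26, 5.40 and 5.76 RPKM with CDK12-2 and at 4.06, 4.41 and 5.20 with CDK12-6, all above the controls. The mean rose from 3.09 ± 0.066 (SD, n = 3) to 4.85 ± 0.694 RPKM (SD, n = 6), a log2 fold change of 0.51 ± 0.097 (SE; limma, adjusted p = 0.00354). Without the 3 AK41 libraries its adjusted p was 0.0840. Its antisense neighbour INHBA-AS1 was listed at no more than 0.163 RPKM.

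The coreceptor fell while both signalling receptors rose, TGFBR2 only just past the threshold. TGFBR3 (chr1:92145902-92371892, hg19) stood at 3.76, 3.02 and 3.81 RPKM in the controls, at 1.20, 1.49 and 1.65 with CDK12-2 and at 1.16, 1.40 and 1.52 with CDK12-6. No CDK12 siRNA library came near the lowest control, and the mean went from 3.53 ± 0.440 (SD, n = 3) to 1.40 ± 0.194 RPKM (SD, n = 6). On the log2 scale the change was -0.91 ± 0.092 (SE; limma, adjusted p = 0.000101), and it is -1.34 in the authors' deposited table. It was the only member to fall, and it passed in each of the 20 alternative analyses.

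TGFBR1 (chr9:101866320-101916474, hg19), the type I kinase, stood at 4.05, 3.74 and 3.71 RPKM in the controls. With CDK12-2 it was 4.49, 5.28 and 5.38 RPKM and with CDK12-6 it was 4.77, 5.23 and 5.03. The lowest CDK12 siRNA library was above the highest control, and the log2 fold change was 0.32 ± 0.074 (SE; limma, adjusted p = 0.00967). Its adjusted p was 0.185 without the 3 AK41 libraries and 0.0912 without the 3 AK49 libraries.

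TGFBR2 (chr3:30647994-30735634, hg19), the ligand-binding kinase, was the most abundant receptor, at 12.5, 11.8 and 12.7 RPKM in the controls. It stood at 13.6, 16.8 and 18.3 RPKM with CDK12-2 and at 13.1, 15.2 and 16.1 with CDK12-6. The groups did not overlap, but the AK39 libraries of both CDK12 siRNAs were close to the highest control. The log2 fold change was 0.30 ± 0.10 (SE; limma, adjusted p = 0.0432), near the threshold. The call was lost in 10 of the 20 alternatives, at an adjusted p of 0.0861 with no filter on low values, 0.114, 0.117 and 0.0971 without luciferase AK39, AK41 and AK49, and 0.0913 and 0.0713 without CDK12-2 AK41 and AK49. It was 0.0869 and 0.0647 without CDK12-6 AK41 and AK49, and 0.325 and 0.156 without all AK41 and all AK49 libraries.

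Of the receptor-activated SMADs, SMAD3 rose and SMAD2 did not pass. SMAD3 (chr15:67356101-67487533, hg19) stood at 2.16, 1.45 and 1.96 RPKM in the controls. It stood at 3.21, 4.58 and 5.40 RPKM with CDK12-2 and at 3.04, 3.62 and 4.96 with CDK12-6, and the groups did not overlap. The mean rose from 1.86 ± 0.365 (SD, n = 3) to 4.14 ± 0.982 RPKM (SD, n = 6), 2.23-fold. The log2 fold change was 0.83 ± 0.16 (SE; limma, adjusted p = 0.00353), against 1.14 in the authors' deposited table. Its adjusted p without the 3 AK41 libraries was 0.0788.

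SMAD2 (chr18:45357922-45457515, hg19) stood at 2.41, 2.24 and 2.14 RPKM in the controls, at 1.90, 2.32 and 2.26 with CDK12-2 and at 2.13, 2.22 and 2.03 with CDK12-6. All 9 libraries lay in 1 narrow range. Its log2 fold change was -0.06 ± 0.07 (SE), with a 95% interval of -0.21 to 0.10 (limma, adjusted p = 0.581), and it was 0.01 without the 3 AK39 libraries. Its span holds the processed pseudogene RP11-380M21.2, listed at 68.2 to 143.7 RPKM.

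SMAD4 (chr18:48494410-48611415, hg19), the common partner, stood at 5.67, 4.41 and 5.15 RPKM in the controls. It stood at 5.44, 7.01 and 7.08 RPKM with CDK12-2 and at 5.37, 6.33 and 6.76 with CDK12-6, so the AK39 libraries of both CDK12 siRNAs lay inside the range of the controls. Its log2 fold change was 0.27 ± 0.11 (SE) and did not pass (limma, adjusted p = 0.0832), while the authors' deposited table gives it a false discovery rate of 0.0439. It passed in 6 of the 20 alternatives, at an adjusted p of 0.0310 without CDK12-2 AK39, 0.0227 without the 3 AK39 libraries and 0.0269 without luciferase AK41, CDK12-2 AK39 and CDK12-6 AK39. It was 0.00120 after quantile normalization, 0.00252 after scaling to reads in listed genes and 0.0145 after correction for GC content. Its value is uncertain because a read-through transcript, RP11-729L2.2, covers much of the same locus and was listed at 10.7 to 17.2 RPKM.

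SMAD7 (chr18:46446223-46477081, hg19), the inhibitory SMAD, stood at 1.13, 1.04 and 1.06 RPKM in the controls. It stood at 2.04, 2.35 and 2.89 RPKM with CDK12-2 and at 2.19, 2.44 and 2.94 with CDK12-6, all well above the controls. The mean rose from 1.08 ± 0.046 (SD, n = 3) to 2.48 ± 0.367 RPKM (SD, n = 6), 2.30-fold. In limma the log2 fold change was 0.74 ± 0.094 (SE; adjusted p = 0.000375), on a scale that understates a gene near 1 RPKM. It is 1.185 in the authors' deposited table. SMAD7 passed in each of the 20 alternatives. SMAD7 and TGFB2 are the members whose spans overlap no other listed gene.

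Both siRNAs gave like values, and they share the 3 control libraries. Against luciferase, CDK12-2 changed 7 members (6 higher and 1 lower), where 25.2% of all tested genes were called. CDK12-6 changed 6 (5 higher and 1 lower), where 26% were called. The difference between these counts is TGFBR2, at a log2 fold change of 0.37 with CDK12-2 (limma, adjusted p = 0.0454) and 0.24 with CDK12-6 (adjusted p = 0.160). For SMAD3 the log2 fold changes were 0.90 and 0.76, for INHBA 0.58 and 0.44, and for TGFB2 0.69 and 0.63. For SMAD7 they were 0.72 and 0.76, for TGFBR3 -0.89 and -0.94, and for TGFBR1 0.32 and 0.31. In the direct test of CDK12-2 against CDK12-6, limma called 0 members and 0% of all tested genes. At an unadjusted p under 0.05 it held 101 genes and 0 members. The member with the lowest unadjusted p there was INHBA, at a difference of 0.14 with a 95% interval of -0.11 to 0.39. The interval for SMAD3 was -0.27 to 0.56 and for TGFBR3 -0.19 to 0.29. Libraries of the same AK number can be taken as pairs of these groups, and within such pairs the spread was smaller. No label states that pairing. Deviations of the same-numbered libraries correlated at 0.76, 0.13 and 0.81 for AK39, AK41 and AK49. CDK12-2 was above CDK12-6 in all 3 pairs for TGFB1, TGFBR2, TGFBR3, SMAD3, SMAD4 and INHBA, as were 18.0% of all tested genes, and below it in all 3 for SMAD7, as were 11.4%. In a fit of these 6 libraries with the AK number as a replicate block, added after seeing the data, the difference was 0.14 for SMAD3 (95% interval 0.02 to 0.27), 0.14 for INHBA (0.02 to 0.26) and 0.12 for TGFBR2 (0.01 to 0.24). After adjustment over all tested genes these had limma adjusted p of 0.556, 0.552 and 0.574. That fit called 0 members and 1 gene in all.

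**Figure D2:**
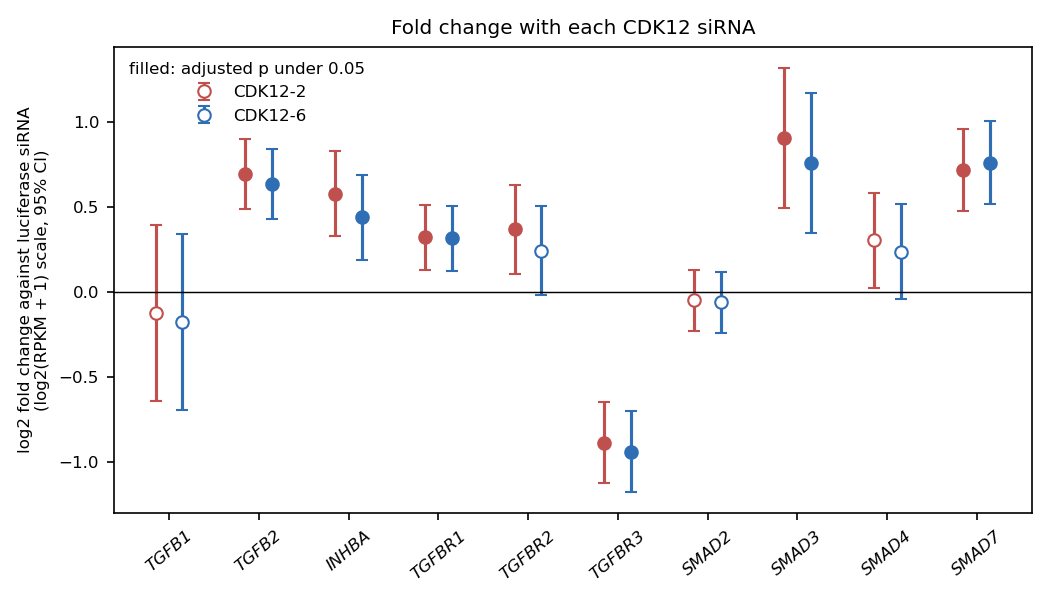
Log2 fold change of each gene with CDK12-2 and with CDK12-6 against luciferase, on the log2(RPKM + 1) scale, with 95% intervals. Filled points have an adjusted p under 0.05. The scale understates genes near 1 RPKM, such as TGFB2 and SMAD7. The points of both siRNAs lie side by side for each gene, from -0.94 and -0.89 for TGFBR3 to 0.76 and 0.90 for SMAD3, and TGFBR2 is the gene filled for CDK12-2 alone.

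Within the CDK12 siRNA groups the AK39 library was the low one. It held the lowest of the 3 values for 10 of 10 members with CDK12-2 and for 9 of 10 with CDK12-6. Across all tested genes the shares were 77.6% and 68.9%. In the luciferase group it was the lowest for 0 of 10 members and 9.65% of tested genes. Ratios between genes of 1 library do not depend on how libraries are scaled, and are given here for that reason. Differences that follow G or C content need not cancel in them. Deviations of libraries from group means correlated with it over genes at a Spearman rho of -0.590 to 0.598. The longest transcripts hold 63.5% G or C for TGFB1, 38.9% for TGFB2, 39.1% for INHBA, 50.4% for SMAD3 and 40.2% for SMAD2. For TGFBR3 and TGFBR2 it is 43.8% and 47.4%. The part of this in the ratios was not tested.

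In RPKM, SMAD3 went from below SMAD2 to above it. This order depends on the listed lengths, 9113 bases for SMAD3 and 13770 for SMAD2. In reads, SMAD3 stayed below SMAD2 in CDK12-6 AK39 (4486 against 4746) and was above it in the other CDK12 siRNA libraries. The ratio of SMAD3 to SMAD2 RPKM was 0.896, 0.648 and 0.914 in the controls and 1.43 to 2.44 with CDK12 siRNA, a mean of 0.820 ± 0.148 (SD, n = 3) against 1.92 ± 0.417 (SD, n = 6). The coreceptor fell relative to the type II receptor with little spread. TGFBR3 over TGFBR2 was 0.302, 0.256 and 0.301 in the controls and 0.0879 to 0.0945 in the 6 CDK12 siRNA libraries, AK39 included. TGFB2 was 0.840% ± 0.140 (SD, n = 3) of the sum of TGFB1 and TGFB2 in the controls and 3.74% ± 0.377 (SD, n = 6) with CDK12 siRNA, where it ranged from 3.25% to 4.23%. TGFB1 thus remained far the larger transcript of the pair. INHBA over TGFB1 was 0.116 ± 0.026 and 0.199 ± 0.024. SMAD3 over SMAD4 was 0.364 ± 0.030 in the controls and 0.646 ± 0.086 with CDK12 siRNA, subject to the uncertain SMAD4 reads.

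A further pair of ratios differed by less than the spread between libraries. SMAD7 over SMAD3 was 0.592 ± 0.105 (SD, n = 3) in the controls and 0.612 ± 0.081 (SD, n = 6) with CDK12 siRNA. TGFBR2 over TGFBR1 was 3.22 ± 0.177 and 3.08 ± 0.238. No ratio given here or above has a test of its own. Each was formed with a member whose own ranges did not overlap.

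**Figure D3:**
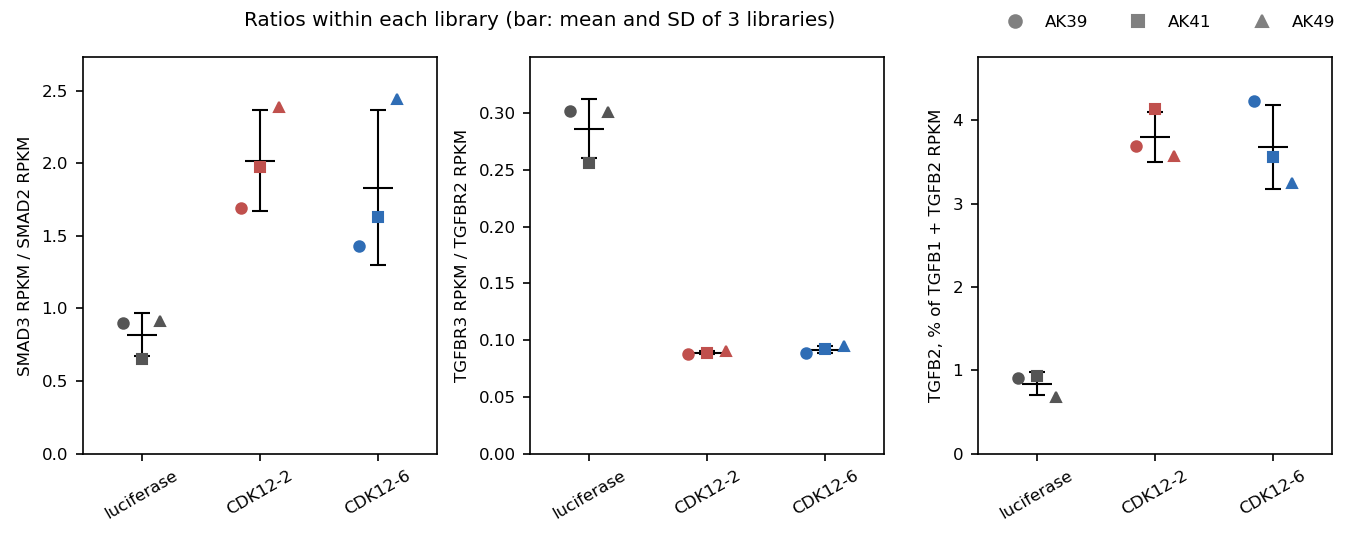
Ratios of RPKM within each library for SMAD3 over SMAD2, TGFBR3 over TGFBR2, and TGFB2 as a percentage of TGFB1 plus TGFB2, by siRNA group. Points are libraries and bars give the mean and SD of 3 libraries. The ranges of controls and CDK12 siRNA libraries do not meet in any panel, and TGFBR3 over TGFBR2 lies between 0.0879 and 0.0945 in all 6 CDK12 siRNA libraries. Each panel holds a member whose own ranges did not overlap (SMAD3, TGFBR3 or TGFB2), so the separation is a description and no test.

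In order of RPKM, which is per length of gene, the controls ran from TGFB1 through TGFBR2, SMAD4, TGFBR1, TGFBR3, INHBA, SMAD2, SMAD3 and SMAD7 to TGFB2. Neighbours whose ranges overlapped were TGFBR1 with TGFBR3, TGFBR3 with INHBA, and SMAD2 with SMAD3. With CDK12 siRNA the order was TGFB1, TGFBR2, SMAD4, TGFBR1, INHBA, SMAD3, SMAD7, SMAD2, TGFBR3 and TGFB2. There the ranges overlapped between TGFB1 and TGFBR2, along the run from SMAD4 to SMAD3, between SMAD7 and SMAD2, and between TGFBR3 and TGFB2. TGFBR3 thus moved from the middle of the order to the last place but one. It was above TGFB2 in each of the 6 libraries, although the ranges of both genes over these libraries meet.

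A list of 11 genes held the ligand TGFB3 and genes that hold, release or activate latent TGF-beta. Of these, 6 were tested, 4 were higher and 0 were lower, with a median log2 fold change of 0.51. For this list and those below, the shares over all tested genes were 13.3% higher and 19.7% lower. TGFB3 was not tested and stood at 0.137 to 0.181 RPKM in the controls and at 0.187 to 0.268 with CDK12 siRNA. FURIN, the protease that cleaves the precursor, and LTBP4, a further latent TGF-beta binding protein, did not pass, at log2 fold changes of -0.01 and -0.29. ITGB8, the integrin subunit that frees latent TGF-beta, went from 0.241 ± 0.012 (SD, n = 3) to 0.975 ± 0.113 RPKM (SD, n = 6), a log2 fold change of 0.67 (limma, adjusted p = 7.62e-05). LTBP3, a latent TGF-beta binding protein, went from 0.820 ± 0.149 to 2.76 ± 0.671 RPKM (log2 fold change 1.03, limma, adjusted p = 0.000582). Both passed the filter through CDK12 siRNA libraries alone. THBS1, an activator of the latent form, rose from 8.58 to 19.4 RPKM, and ITGAV, the partner chain of ITGB8, rose from 16.6 to 21.3 RPKM. Without the 3 AK41 libraries 2 of the list passed. Genes named here and below beyond the 2 highest and 2 lowest of a list by adjusted p were named after their values were seen. These are TGFB3, THBS1, ITGAV, FURIN, LTBP4, GDF11, SMAD5, SMAD6, FN1, TGFBI, COL4A1, TNC, COL1A1, LOX, ZEB1 and SNAI1.

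Activin-related ligands and their antagonists were mostly silent. Of 11 listed, 3 were tested, and 1 fell and 0 rose. The one that fell was FSTL3, which binds and blocks activin, from 13.9 ± 1.51 (SD, n = 3) to 8.55 ± 1.22 RPKM (SD, n = 6), a log2 fold change of -0.64 (limma, adjusted p = 0.00284). With no filter on low values, 2 of the list passed as higher and 1 as lower. GDF11, an activin-like ligand, did not pass as reported (log2 fold change -0.35, adjusted p = 0.0783). It passed as lower in 7 of the 20 alternatives, among them those without luciferase AK41 and without CDK12-6 AK49, which gave the list 2 genes lower.

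Of the 7 other receptors, 5 were tested, of which 1 was higher and 1 lower. ACVR2B, an activin type II receptor, went from 1.63 to 1.14 RPKM (log2 fold change -0.30, limma, adjusted p = 0.0241). BAMBI, a decoy receptor without a kinase domain, went from 1.0 to 1.53 RPKM (0.33, adjusted p = 0.0447). For CDK12-2 and CDK12-6 alone, the limma adjusted p was 0.0677 and 0.0397 for ACVR2B, and 0.105 and 0.0719 for BAMBI. No gene of the list passed without luciferase AK39, without luciferase AK49, without CDK12-6 AK41, or without all AK41 or all AK49 libraries, and 1 passed without luciferase AK41, CDK12-2 AK41, CDK12-2 AK49 or CDK12-6 AK49.

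The SMADs of the bone morphogenetic protein branch were higher. Of 4 listed, 3 were tested and all 3 passed as higher, as did 13.3% of all tested genes. SMAD1 went from 1.16 ± 0.043 (SD, n = 3) to 1.70 ± 0.128 RPKM (SD, n = 6), a log2 fold change of 0.32 (limma, adjusted p = 0.00429). SMAD9 went from 0.496 ± 0.119 to 0.998 ± 0.158 RPKM (0.42, adjusted p = 0.00503), and passed the filter through CDK12 siRNA libraries alone. SMAD5 went from 8.99 to 11 RPKM (0.26, adjusted p = 0.0215). With CDK12-6 alone SMAD5 did not pass (limma, adjusted p = 0.0596). SMAD6, the other inhibitory SMAD, was not tested and stood at 0.0535 to 0.114 RPKM in the controls and at 0.413 to 0.701 after CDK12 knockdown. None of the 3 passed without the AK41 libraries and 1 passed without the AK49 libraries. Of the 3, 2 passed without luciferase AK41, luciferase AK49, CDK12-2 AK41 or CDK12-6 AK41.

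Few regulators and corepressors of the SMADs passed the test. All 16 were tested, 1 was higher and 1 was lower, and the median log2 fold change was -0.07. Over all tested genes 13.3% were higher and 19.7% lower. PMEPA1, a target gene that sequesters SMAD2 and SMAD3, went from 0.693 ± 0.088 (SD, n = 3) to 1.52 ± 0.322 RPKM (SD, n = 6), a log2 fold change of 0.56 (limma, adjusted p = 0.00393), and it passed the filter through CDK12 siRNA libraries alone. TRIM33, a ubiquitin ligase that acts on SMAD4, went from 12.4 ± 0.893 to 9.25 ± 0.783 RPKM (-0.39, adjusted p = 0.00753). Neither passed without the 3 AK41 libraries, and the list had 5 calls after quantile normalization or correction for GC content and 4 after scaling to reads in listed genes.

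Target genes known from many cell types did not move together. Over all tested genes 13.3% were called higher and 19.7% lower. Of 33 target genes used here, 26 were tested, 9 were higher, 9 were lower and 8 did not pass. Their median log2 fold change was -0.09, against -0.04 over all tested genes. The counts were 6 higher and 3 lower without the 3 AK41 libraries, 8 and 4 without luciferase AK39 or without all AK39 libraries, and 9 and 5 without luciferase AK49. With no filter on low values they were 13 and 7. The genes named below stand for both directions.

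Among the targets that rose, SNAI2, a transcription factor of the mesenchymal transition, went from 1.83 ± 0.176 (SD, n = 3) to 7.73 ± 1.04 RPKM (SD, n = 6), a log2 fold change of 1.62 (limma, adjusted p = 1.38e-05). ID3, an inhibitor of helix-loop-helix factors that responds mainly to the bone morphogenetic protein branch, went from 5.52 ± 0.672 to 14 ± 1.5 RPKM (1.20, adjusted p = 2.71e-05). FN1, encoding fibronectin, stood at 1.31, 0.875 and 1.48 RPKM in the controls and at 5.35 to 11.9 after CDK12 knockdown (log2 fold change 2.06, limma, adjusted p = 0.000187). COL4A1, a basement membrane collagen, rose from 15.1 to 39.1 RPKM and TGFBI, a secreted matrix protein, from 4.56 to 11.5 RPKM. Other matrix genes of the list did not move this way: TNC fell (log2 fold change -0.47, limma, adjusted p = 0.0262), and COL1A1 and LOX did not pass (adjusted p of 0.319 and 0.737). With CDK12-2 alone TNC did not pass (limma, adjusted p = 0.0819). ZEB1 and SNAI1, further transcription factors of the mesenchymal transition in the list, did not follow SNAI2. ZEB1 fell (log2 fold change -0.35, limma, adjusted p = 0.00447) and SNAI1 did not pass (-0.13, adjusted p = 0.388).

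Among the targets that fell, IL11, a cytokine, went from 3.38 ± 0.316 (SD, n = 3) to 1.19 ± 0.077 RPKM (SD, n = 6), a log2 fold change of -1.0 (limma, adjusted p = 1.5e-05). TAGLN, a smooth muscle actin-binding protein, went from 2.59 ± 0.138 to 1.12 ± 0.175 RPKM (-0.76, adjusted p = 6.03e-05). SNAI2, ID3, FN1, COL4A1, TGFBI, IL11 and TAGLN passed in all 20 alternatives. ZEB1 passed in 19, TNC in 14, and COL1A1, LOX and SNAI1 in 0.

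**Figure D4:**
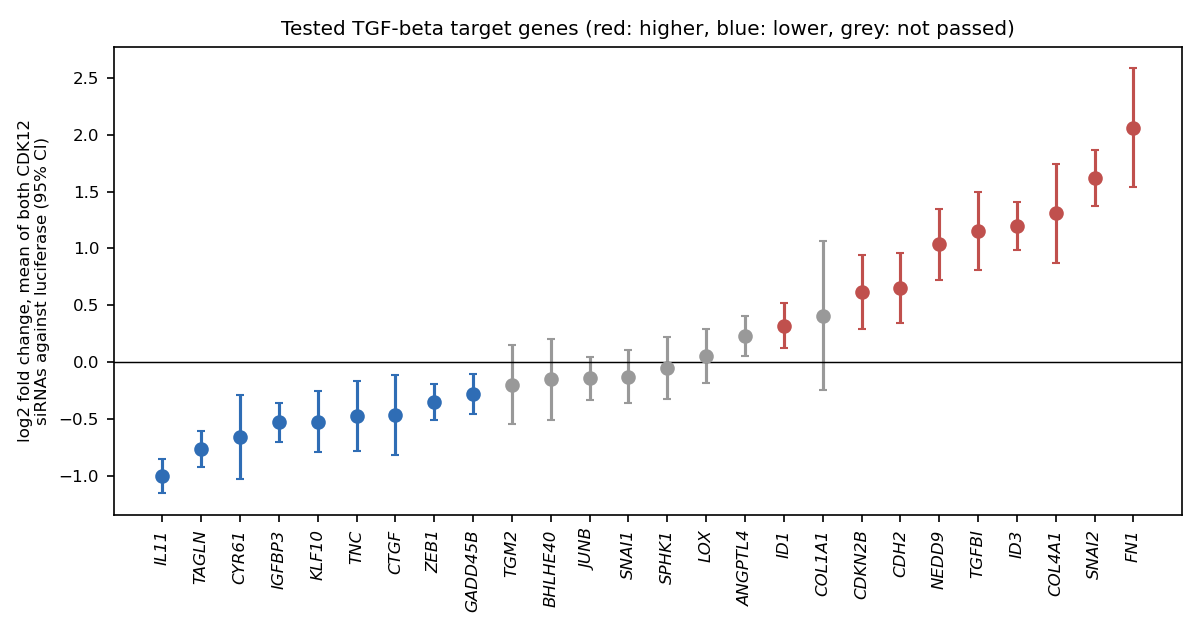
Log2 fold change of the 26 tested TGF-beta target genes, mean of both CDK12 siRNAs against luciferase, with 95% intervals, in order of size. Red points passed as higher, blue points as lower, and grey points did not pass. The genes run from IL11 at -1.0 to FN1 at 2.06, with 9 blue and 9 red points.

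The heptamer GTGGGCA shown above for TGFB2, INHBA and TGFBR3 was in the 3′ UTR of 1 member that fell and 2 that rose. The other member with a match, SMAD2, did not pass the test, and its match lies at base 31405 of an annotated 3′ UTR of 32870 bases, longer than the 13770 bases for which the deposited table counts the gene. Of 10923 tested genes with an annotated 3′ UTR, 1688 (15.5%) hold the heptamer. Of these 27.5% were lower and 8.65% higher with CDK12 siRNA, against 19.4% and 13.8% of the 9235 without it. The heptamer was picked in earlier work on these data for being frequent in genes that fell. This difference is therefore a description and no test. The median 3′ UTR was 2608 bases long with the heptamer and 1167 without, and the part of length in this difference was not tested.

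The genes whose values over the 9 libraries were most like those of TGFB2 were CBX5 (Pearson r 0.997), FAM46C (0.997) and DIRC2 (0.996). CBX5 had a mean of 11.6 RPKM in luciferase libraries and 26.4 after CDK12 knockdown. Those most like TGFBR3 were AKAP2 (0.999), PALM2-AKAP2 (0.999) and RRBP1 (0.998). RRBP1 had a mean of 17.1 RPKM in luciferase libraries and 3.44 after CDK12 knockdown, and AKAP2 and PALM2-AKAP2 share a locus and so their reads. All of these libraries share the same split into control and CDK12 siRNA, so the correlations describe the profile and have no test.

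Across the 20 alternative analyses that give the mean of both siRNAs, TGFB2, TGFBR3 and SMAD7 passed in all 20, SMAD3 and INHBA in 19, TGFBR1 in 18, TGFBR2 in 10, SMAD4 in 6, and TGFB1 and SMAD2 in 0. The log2 fold change ranged from 0.72 to 1.10 for SMAD3, from -1.27 to -0.81 for TGFBR3 and from 0.64 to 1.12 for SMAD7. For TGFB2 it ranged from 0.53 to 1.67. Apart from the alternative with no filter, all of them tested TGFB2 through its CDK12 siRNA libraries alone.

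**Figure D5:**
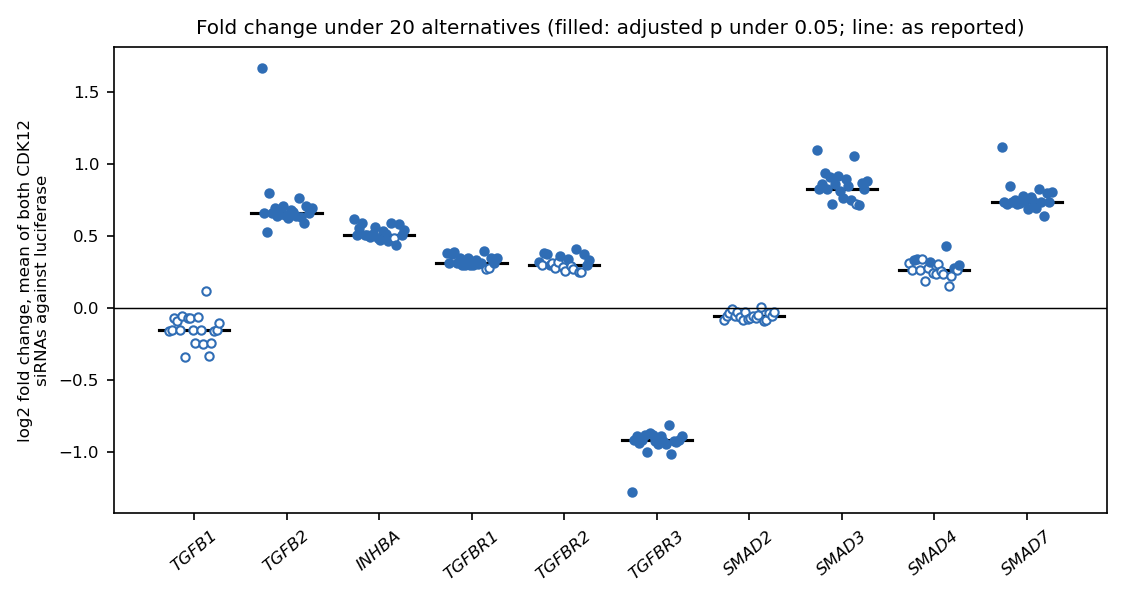
Log2 fold change of each gene, mean of both CDK12 siRNAs against luciferase, under 20 alternative analyses. Each point is 1 alternative, filled where the adjusted p was under 0.05, and the horizontal line is the value reported in the text. TGFB2, TGFBR3 and SMAD7 are filled throughout, TGFB1 and SMAD2 nowhere, and TGFB1 and SMAD2 each have 1 point above zero.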

How the data were processed

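The authors deposited RPKM values for 57773 genes, with hg19 coordinates and gene lengths, per the file headers. TopHat2, featureCounts, edgeR and hg19 appear in the submitters' processing notes, which give neither order nor settings. The annotation version was not stated. Per the labels, the kit took polyadenylated RNA and kept no strand. The deposited file also gives log2 fold changes and false discovery rates (adjusted p-values) by the authors, without naming the libraries behind them.

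Multiplied by the listed length plus 1 base, 100% of values above 0 were whole multiples, within 0.001, of 1 step fitted per library. That step was taken to be 1 read. No test on counts was run. limma 3.58.1 in R 4.3.3 (eBayes with a trend) was fitted to log2(RPKM + 1) over all 9 libraries and 3 groups. The filter kept the 15208 genes that reached 1 RPKM in 3 or more libraries, and Benjamini-Hochberg adjustment over these used a threshold of 0.05. The model was first tested on simulated data. The members and gene lists were chosen with earlier results of these data known. A gene of the target list is not reported here and enters none of its counts. For each list, the text names the risers and fallers with the lowest adjusted p, up to 2 each.

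Deviations from group means correlated between same-numbered libraries of CDK12-2 and CDK12-6 for AK39 and AK49 (r of 0.76 and 0.81). For AK41 the r was 0.13, below the 0.31 of CDK12-2 AK39 with CDK12-6 AK41, and no label states a pairing. The comparison of CDK12-2 with CDK12-6 was fitted without the block, and a replicate block was an alternative, which called 0 members. Against luciferase the correlations of same-numbered libraries ran from -0.56 to 0.75 and gave no pairing. Luciferase AK41 reached 0.74 and 0.80 with AK39 of CDK12-2 and CDK12-6.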

Additional observations from a re-analysis of the deposited data

How the results depend on the processing

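The alternatives were a pseudocount of 0.1, no filter on low values, 2 other scalings, a replicate block and no trend. Others left out each library or AK number, or together the 3 libraries at the negative end of the second principal component. A further 2 were chosen after seeing the data, a GC content correction and a block within the CDK12 groups. With libraries left out, 3 to 8 members passed for the mean of both siRNAs, 2 to 8 for CDK12-2, 3 to 7 for CDK12-6 and 0 for CDK12-2 against CDK12-6. The lowest counts came without the 3 AK41 libraries, when each group has 2 libraries. Without the AK39 or AK49 libraries, which leaves as few, 8 and 5 members passed, and the cause of the difference was not tested. With libraries left out, the genes called for the mean of both siRNAs ranged from 1805 to 5314, with 3095 without luciferase AK39, against 5024 as reported. Quantile normalization gave 6596, scaling to reads in listed genes 6553 and GC correction 7685. No filter on low values gave 6128 of 44118 tested. The log2 fold change of TGFB1 ranged from -0.34 to 0.12 and that of SMAD2 from -0.0898 to 0.00754 with libraries left out, so both changed sign without passing. A fit with the AK number as a replicate block called 7, 7, 6 and 0 members in the 4 comparisons, as reported, and 6241 genes. The median of all genes moved between -0.08 and 0.04. At 145 to 853 reads TGFB2 has the widest counting error of the members.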

Other observations

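Of the list genes under the filter, which have no test, 22 were above 0 in some library. The ranges of the CDK12 siRNA and luciferase libraries did not overlap for 10 that were higher (45.5%) and 1 that was lower (4.55%). Among all 28910 such genes the shares were 8.12% and 3.65%. Those genes were not matched in level to the list genes, and ranges near 0 RPKM separate less readily. The shares are therefore a description and no test. The examples were picked after their values were seen. INHBE, an inhibin subunit, is the lower one, at 0.107 to 0.156 RPKM in the controls and 0.0491 to 0.10 with CDK12 siRNA. ID2, a helix-loop-helix inhibitor, stood at 0.0936 to 0.157 RPKM in the controls and 0.293 to 0.451 with CDK12 siRNA. ACTA2, encoding smooth muscle actin, stood at 0.240 to 0.356 and 0.712 to 1.10 RPKM, while TAGLN, another smooth muscle gene of the list, fell. NOX4, an NADPH oxidase, stood at 0.0145 to 0.0319 and 0.107 to 0.138 RPKM. FST, which binds activin as FSTL3 does, stood at 0.265 to 0.305 and 0.470 to 0.658 RPKM, opposite in direction to FSTL3. LTBP1 stood at 0.177 to 0.220 and 0.323 to 0.561 RPKM.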
